A study of Mus musculus with 12 samples.

Results

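The circRNAs described here fell in mouse blood within 5 min of middle cerebral artery occlusion (MCAO) and stood nearer to the sham level again at 24 h. They were chosen by their own readout. Of 14236 circRNA probes on the array, 8844 were well above local background on all 12 arrays, and 179 of these (2.02%) had a mean log2 intensity at least 1.5 below the SHAM mean at 5 min but less than 1 below it at 24 h. They were 49.6% of the 361 probes that fell that far at 5 min. The remaining 182 were still at least 1 below SHAM at 24 h and serve as the comparison set, called here the persistently low circRNAs.

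The samples were peripheral whole blood of male Balb/c mice, 8 weeks old by the labels, although the study's methods give an older age. Blood was drawn by cardiac puncture under anaesthesia. In the MCAO_5min, MCAO_3h and MCAO_24h groups a silicon-coated nylon filament closed the middle cerebral artery for 5 min, 3 h or 24 h under isoflurane, and SHAM mice (0 h) had the same surgery without occlusion. The labels name no transgene or altered allele. Each group had 3 arrays, and nothing in the labels says whether an array held the blood of 1 mouse or a pool, so the errors below measure the spread between arrays.

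A circRNA forms when the spliceosome joins the end of an exon back to the start of the same or an earlier exon of its host gene. The closed loop has no free ends, so it outlasts linear RNA, resists the exonuclease RNase R and accumulates in cells without a nucleus such as platelets and red cells. In this study RNase R removed linear RNA before labelling, and each probe reads a circRNA rather than the mRNA of the host gene. The linear markers of blood cells were therefore not measured, and what a host gene is known to do describes the gene, not the circle. In whole blood, fewer cells of a type and less of a circRNA per cell cannot be told apart.

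Only 36 of the 179 circRNAs (20.1%) could be given a name, against 55.5% of the persistently low ones. Names came from the study's supplementary list of 903 changed circRNAs, which the study drew from these same arrays by size of change and p. No log2 change in it is smaller than 2 in size at the time for which a circRNA is listed, which is 5 min for 35 of the 36 and 24 h for that of Mfsd6. Of the 143 unnamed members, 10 also fell by at least 2, with adjusted p values of 0.0566 to 0.117. The log2 differences of the named circRNAs at 5 min ran from -3.12 to -1.56 with a median of -2.28, against -2.49 to -1.501 with a median of -1.69 for the unnamed ones. Of the 36, 28 were exonic (77.8%, against 73.5% of all 903), 6 were sense overlapping, 1 was intronic and 1 intergenic. They came from 28 host genes on 14 chromosomes. The median genomic span between their 2 back-splice ends was 17079 bp, with a range of 478 to 233066 bp, and that of all 903 was 10151 bp.

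On the normalized log2 intensity scale, the median of the 179 circRNAs was 8.08, 9.32 and 9.66 on the SHAM arrays. The 5 min arrays had 7.20, 6.96 and 7.04, the 3 h arrays 8.35, 7.79 and 8.97, and the 24 h arrays 8.54, 8.98 and 9.15. All 5 min medians lay below all others, and the first SHAM array lay below the other 2, within the range of the 3 h arrays. The median over all 10678 tested circRNA probes stayed between 6.98 and 7.12 on every array. Before normalization the 5 min arrays were also the dimmest: the median raw intensity of the tested probes was 70 to 107 there, 134 to 195 in SHAM, 165 to 277 at 3 h and 205 to 298 at 24 h. The part of this brightness in the fall was not tested.

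**Figure D1:**
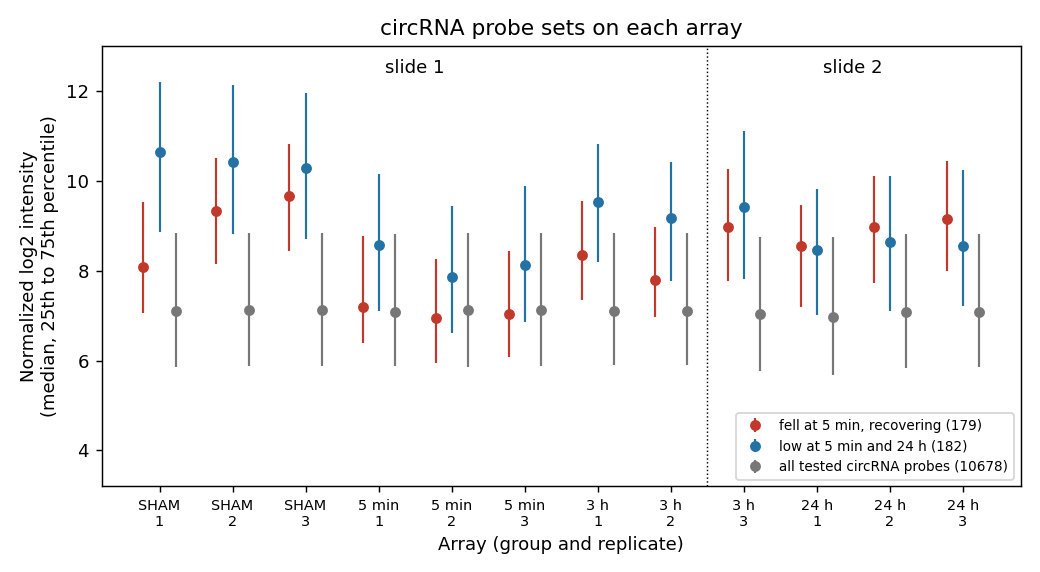
Normalized log2 intensity (median with 25th to 75th percentile, vertical axis) of the 179 circRNAs that fell at 5 min and recovered (red), the 182 persistently low ones (blue) and all 10678 tested probes (grey) on each of the 12 arrays. The red medians are 7.20 or less on the 5 min arrays and 8.54 or more on the 24 h arrays, which were all on slide 2, right of the dotted line.

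The array headers hold 2 scan times, shared by 8 and by 4 arrays and taken here as 2 slides, and they divide the study along the time axis. The SHAM and 5 min arrays and 3 h replicates 1 and 2 were on slide 1, and 3 h replicate 3 and all 24 h arrays were on slide 2. The fall at 5 min is thus a comparison within slide 1. The return at 24 h is a comparison across slides, and slide and time can be separated only through the 3 h group. There, replicate 3 on slide 2 exceeded the mean of replicates 1 and 2 by a median log2 of 0.65 over the 179 circRNAs, against -0.16 over all tested probes, and it was the highest 3 h array for 147 of the 179 (82.1%, against 32.6% of tested probes).

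At 5 min, the log2 differences of the 179 circRNAs from SHAM ran from -3.12 to -1.501 with a median of -1.73, where the median of all tested probes was 0.10. These values chose the set, so they are a description. In limma's moderated test with Benjamini-Hochberg adjustment over the 10678 probes, 97 of the 179 were called lower at an adjusted p of at most 0.05, beside 5.26% of tested probes called in either direction and 3.55% called lower. The calls took in 34 of the 36 named members and 63 of the 143 unnamed ones. Since both the rule and the naming list used the 5 min arrays, a count of 5 min calls says nothing about a group of named circRNAs, and none is given below. On 152 of the 179 (84.9%) all 5 min arrays lay below all SHAM arrays, beside 16% of tested probes. The number of calls hung on single arrays: it was 161 without SHAM replicate 1, but 1 without SHAM replicate 2 and 1 without 5 min replicate 3. The calls over all tested probes in these fits are not given here, so these counts describe the fits and not the members.

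The 3 h arrays entered the choice of the set only through the filter on background. At 3 h, every one of the 179 stood above its 5 min mean and 166 stood below the SHAM mean. The median log2 difference from SHAM was -0.72, with a range of -1.59 to 1.04, and that of all tested probes was -0.12. No member was called against SHAM at 3 h by limma, beside 4.24% of tested probes called and 0.815% called lower. Every group of members named below therefore had no call at 3 h, which says nothing about a single group. An unadjusted p under 0.05 was found for 26 members, and the share of tested probes at that limit is not given here. Within slide 1 alone, 3 h replicates 1 and 2 gave a median of -0.95 from SHAM, and 8 members were then called lower. The share of all tested probes called in that fit is not given here, so this count is not read as a result about the members. On 23 members (12.8%) all 3 h arrays lay below all SHAM arrays, beside 17.2% of tested probes, and on 1 (0.559%) all lay above, beside 13.7%. The comparison shares its SHAM arrays with the rule and is not independent of it. Against 5 min, 13 members were called higher at 3 h, beside 1.27% of tested probes called higher, and on 133 (74.3%) all 3 h arrays lay above all 5 min arrays, beside 13.6% of tested probes. The same 5 min arrays had chosen the members as low.

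At 24 h, 135 of the 179 means were still below SHAM and 44 above it. The median log2 difference was -0.40, with a range of -0.98 to 2.29, beside -0.18 over all tested probes, and the median share of the 5 min fall that had been regained was 77.6%, after 63% at 3 h. Recovery therefore describes the rule's limit rather than a full return. For 151 circRNAs, the mean rose from 5 min to 3 h and again to 24 h. The rule used these arrays and kept only values less than 1 below SHAM, so calls in the lower direction were largely shut out and the counts against SHAM describe the rule. Called were 3 members, all higher, where 31.8% of tested probes were called in either direction and 14.1% higher. All 24 h arrays lay below all SHAM arrays on 22 members (12.3%), beside 24.9% of tested probes, and above them on 3 (1.68%), beside 19.5%. Against 5 min, where the rule used both groups, 101 were called higher at 24 h (32 of the named and 69 of the unnamed), beside 11.7% of tested probes called higher, and on 126 (70.4%) all 24 h arrays lay above all 5 min arrays, beside 17.1%. With slide as a fixed term, which rests on the 3 h arrays alone, the median at 24 h was -0.9998. In that fit 1 member was called higher than at 5 min, beside 191 of the 10678 tested probes called in either direction. With slide as a random block, the median was -0.51 and 33 were called, beside 1627 of the tested probes called in either direction.

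**Figure D2:**
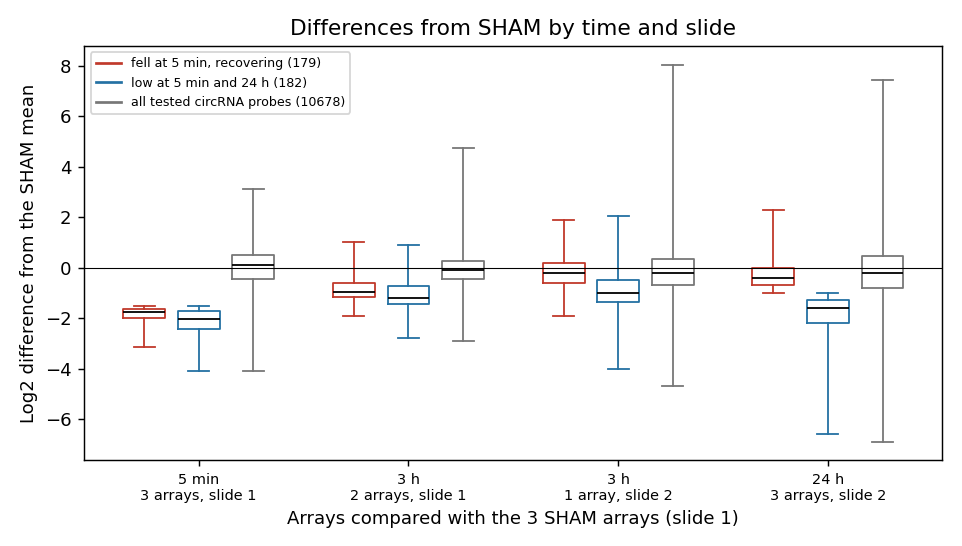
Log2 difference from the SHAM mean (vertical axis; box, 25th to 75th percentile with the median; whiskers, lowest and highest probe) for the recovering set (red), the persistently low set (blue) and all tested probes (grey), with the 3 h group split by slide. For the recovering set the median is -1.73 at 5 min, -0.95 on the 3 h arrays of slide 1, -0.21 on the 3 h array of slide 2 and -0.40 at 24 h, and its values at 5 min and 24 h were used to choose it.

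The persistently low circRNAs fell a little further at 5 min (median -2.01) and regained a median of 43.9% of the fall at 3 h, with a median difference from SHAM of -1.14. By 24 h they were at -1.61, with 17.4% regained, where the rule sets the separation between the sets. Their mean at 24 h exceeded that at 3 h for 23 of 182, against 151 of the 179 recovering ones. The rule divided the sets by their 24 h value, so it largely fixes this contrast, which also crosses slides. On 3 h replicate 3, the array of slide 2, the median levels of the recovering and the persistently low sets were 8.97 and 9.42. The sets differ in their SHAM level, and on that array their median log2 differences from SHAM were -0.21 and -0.98.

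The 3 probes just inside the 5 min limit had log2 differences of -1.5013 (ASCRP4010070), -1.5014 (ASCRP4010177) and -1.503 (ASCRP4002440), and those just outside it -1.4998 (ASCRP4001136), -1.4958 (ASCRP4013618) and -1.4935 (ASCRP4002050). At the 24 h limit, Phkb mmu_circRNA_43246 (-0.98), ASCRP4001686 (-0.94) and ASCRP4014143 (-0.93) were just inside. Mycbp2 mmu_circRNA_27968 (-1.01), Trpc6 mmu_circRNA_43741 (-1.01) and Mkln1 mmu_circRNA_009396 (-1.02) were just outside. At neither limit was there a gap.

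Host genes known from platelets and megakaryocytes gave 4 of the named circRNAs, from Trpc6, Lyst and Tec, out of 25 such circles among all 903, and 15 of the persistently low set. Their median log2 differences from SHAM were -2.71 at 5 min, -0.55 at 3 h and -0.64 at 24 h. The deepest was Trpc6 mmu_circRNA_013636 (chromosome 9, 8634046 to 8658377, plus strand, exonic), from the gene of a receptor-operated cation channel. The probe gave log2 intensities of 11.61, 12.45 and 12.73 with SHAM blood, against 10.30, 8.63 and 9.46 after 5 min, 11.92, 11.12 and 12.75 after 3 h and 11.35, 12.00 and 12.32 after 24 h. The 5 min arrays lay apart from all others, while SHAM, 3 h and 24 h overlapped. The log2 difference was -2.80 ± 0.50 (SE) at 5 min (limma adjusted p = 0.0157), a 6.95-fold lower intensity, and -0.33 ± 0.50 at 3 h (adjusted p = 0.757). A second circle of Trpc6, mmu_circRNA_43742, shares its downstream end at 8658377 and starts at 8643505, and it differed from SHAM by -2.45, -0.77 and -0.82 at the 3 times.

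Lyst encodes the lysosomal trafficking regulator, a BEACH domain protein whose loss enlarges lysosomes and leaves platelets short of dense granules. Its circle mmu_circRNA_26033 (chromosome 13, 13651576 to 13696788, plus strand, exonic) read 9.82, 9.61 and 9.65 in SHAM and 7.29, 6.62 and 6.98 at 5 min. The 3 h arrays gave 9.60, 8.77 and 9.89 and the 24 h arrays 8.41, 9.13 and 9.56. The SHAM arrays lay within 0.21 of each other, and the 5 min arrays were more than 1 log2 unit below every other array. The difference at 5 min was -2.73 ± 0.37 (adjusted p = 0.0110), and at 3 h it was -0.27 ± 0.37.

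Tec encodes a cytoplasmic tyrosine kinase that signals in blood cells, platelets included. Its exonic circle mmu_circRNA_38765 (chromosome 5, 72823455 to 72825130, minus strand) gave 9.62, 9.84 and 9.97 with SHAM blood, against 8.49, 5.61 and 7.27 after 5 min, 9.12, 8.66 and 9.23 after 3 h and 8.84, 9.45 and 9.28 after 24 h. The 5 min arrays spread over 2.88 log2 units, but the highest of them was still below every other array. The difference was -2.69 ± 0.54 at 5 min (adjusted p = 0.0211) and -0.62 ± 0.54 at 24 h.

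The largest fall of the whole set belonged to a cilium gene. Bbs9 encodes a subunit of the BBSome, the coat that carries membrane proteins into and out of cilia, and its circle mmu_circRNA_43867 (chromosome 9, 22638729 to 22670957, plus strand, exonic) read 9.93, 10.08 and 10.05 in SHAM. After 5 min it gave 7.20, 6.59 and 6.92, after 3 h it gave 9.11, 8.32 and 9.16, and after 24 h it gave 9.57, 9.28 and 8.99. The SHAM arrays were the highest and the 5 min arrays the lowest, without overlap, and the 3 h and 24 h arrays overlapped each other only. Mean intensity went from 10.02 ± 0.08 (SD, n = 3) to 6.90 ± 0.31, a difference of -3.12 ± 0.31 (SE; adjusted p = 0.00196), or 8.68-fold lower. Its raw intensities at 5 min were 74.5, 83 and 86, where the median tested probe read 70, 107 and 94. This circle was the only named circRNA called at 5 min in all 12 fits that left out 1 array, with an adjusted p of at most 0.0296. The other named calls held in between 3 and 10 of those fits. The same SHAM and 5 min arrays chose the members, so the fits only describe how far a call hung on single arrays. At 3 h the Bbs9 circle stood at -1.16 ± 0.31 (adjusted p = 0.0581) and at 24 h at -0.74 ± 0.31 (adjusted p = 0.0874).

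**Figure D3:**
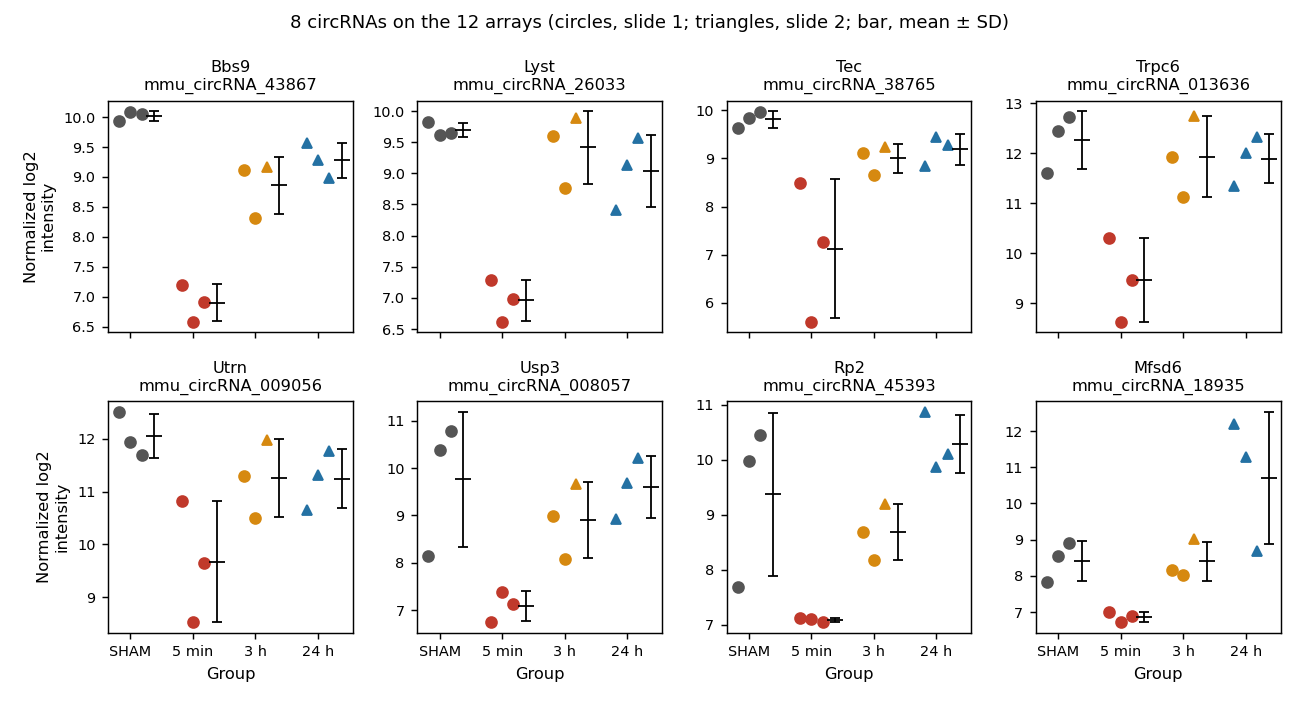
Normalized log2 intensity (vertical axis, scaled per panel) of 8 named circRNAs on the 12 arrays, by group, with the mean ± SD of the 3 arrays as a bar; circles mark slide 1 and triangles slide 2. In Bbs9 and Lyst the SHAM arrays lie close together, in Tec and Utrn the 5 min arrays are spread, in Usp3 and Rp2 the first SHAM array is low, and in Mfsd6 the 24 h arrays run from 8.68 to 12.19.

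The 250 bases upstream of the transcription start of these hosts are shown for the host of the deepest fall and the hosts of the platelet list, each of which also gave a circle in the persistently low set. The sequences are from RefSeq on GRCm38.p6, 5′ to 3′ on the strand of the gene, in lower case, with capitals for the letters of the core motif read by ETS factors (GGAAGT) or by GATA factors (AGATAA) on either strand. Bbs9 (chr9:22475465-22475714, plus) and Tec (chr5:72868449-72868698, minus) each hold 1 GGAAGT and no AGATAA. Trpc6 (chr9:8543892-8544141, plus) and Lyst (chr13:13590159-13590408, plus) hold neither.
Bbs9: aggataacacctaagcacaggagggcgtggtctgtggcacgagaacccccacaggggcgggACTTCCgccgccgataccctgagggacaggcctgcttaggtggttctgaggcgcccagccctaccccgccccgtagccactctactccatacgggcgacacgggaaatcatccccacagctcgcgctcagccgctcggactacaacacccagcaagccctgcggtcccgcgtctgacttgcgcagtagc
Tec: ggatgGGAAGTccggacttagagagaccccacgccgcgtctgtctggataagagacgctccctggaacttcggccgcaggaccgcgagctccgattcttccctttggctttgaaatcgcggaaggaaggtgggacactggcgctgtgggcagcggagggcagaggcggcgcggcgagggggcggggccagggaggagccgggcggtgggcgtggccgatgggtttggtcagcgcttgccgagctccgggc
Trpc6: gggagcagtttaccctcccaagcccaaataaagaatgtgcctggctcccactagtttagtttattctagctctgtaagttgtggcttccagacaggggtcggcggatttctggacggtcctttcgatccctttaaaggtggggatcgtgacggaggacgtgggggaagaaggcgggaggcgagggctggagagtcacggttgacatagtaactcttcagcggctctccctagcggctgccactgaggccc
Lyst: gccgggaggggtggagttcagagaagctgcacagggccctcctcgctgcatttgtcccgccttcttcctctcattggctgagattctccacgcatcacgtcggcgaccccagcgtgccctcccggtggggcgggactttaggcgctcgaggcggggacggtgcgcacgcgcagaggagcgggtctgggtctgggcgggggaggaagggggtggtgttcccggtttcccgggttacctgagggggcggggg

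Of the 28 host genes, 22 had a promoter entry, in 30 windows. GGAAGT stood in at least 1 window of 7 of them (Bbs9, Cnot6l, Dennd1b, Phkb, Pms1, Rnf4 and Tec) and AGATAA in that of 1 (Exoc6). Over all 32851 windows of the table, 19.7% held GGAAGT and 9.99% held AGATAA. The 2 motifs do not overlap in sequence, and a match is a match of letters only. The sequences of the back-splice junctions and of the probes were not analysed here.

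Cilium and centrosome genes gave 3 of 17 named circles, and 5 others were in the persistently low set. Beside Bbs9, the members were 2 circles of Rp2, whose product activates the GTPase of a small G protein in the cilium. Both begin at 20376880 on the plus strand of chromosome X, and they end at 20377546 (mmu_circRNA_45392) and 20381819 (mmu_circRNA_45393). The shorter gave 8.33, 10.37 and 10.92 with SHAM blood, against 6.96, 7.52 and 7.15 after 5 min, 8.96, 8.33 and 9.34 after 3 h and 8.59, 9.22 and 9.72 after 24 h. The longer read 7.68, 9.99 and 10.45, then 7.12, 7.10 and 7.04, then 8.68, 8.17 and 9.20, and finally 10.88, 9.87 and 10.10. The 2 circles moved alike up to 3 h and lay apart at 24 h, where they stood at -0.70 ± 0.56 and 0.91 ± 0.58 from SHAM. The difference between the circles was not tested, and neither 24 h value passed the test (adjusted p = 0.364 and 0.249).

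The largest function group among the members was membrane traffic and its small GTPases, with 8 of the 26 such circles among the 903 named. The persistently low set held 10, out of 101 named circles against 36 here. The median log2 differences of the 8 members from SHAM were -2.11, -0.83 and -0.48 at the 3 times. After Lyst, the deepest were the circle of Atp6v1h, a subunit of the proton pump that acidifies vesicles, and that of Snx27, a sorting nexin of endosomal recycling. Atp6v1h mmu_circRNA_19573 gave 8.08, 9.39 and 9.78 with SHAM blood, against 7.18, 6.80 and 6.90 after 5 min, 8.22, 7.49 and 8.67 after 3 h and 7.61, 9.03 and 9.36 after 24 h. Snx27 mmu_circRNA_19295 gave 8.18, 9.61 and 9.98 with SHAM blood, against 7.27, 7.01 and 7.15 after 5 min, 8.63, 7.79 and 8.92 after 3 h and 8.56, 9.80 and 10.23 after 24 h. In both, the 5 min arrays were the lowest and the first SHAM array fell among the 3 h values. At 24 h Snx27 stood at 0.28 ± 0.51 (-0.43 with slide as a fixed term) and Atp6v1h at -0.42 ± 0.51.

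Dennd1b, which activates a Rab GTPase of endosomes, gave 2 circles that share their end at 139062971 on chromosome 1. Their differences from SHAM were -2.09 and -2.003 after 5 min, then -0.86 and -0.85, and finally -0.53 and -0.77 after 24 h. The other circles of the group, chosen after their values were seen, came from Rabep1, Arl8b and Exoc6, which act in early endosome fusion, lysosome positioning and exocytosis. Their differences at 5 min were all -2.10 to -2.11. By 24 h Exoc6 stood at 0.0036 ± 0.46 (-0.79 with slide as a fixed term), Rabep1 at -0.44 ± 0.56 and Arl8b at -0.76 ± 0.52.

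Ubiquitin and SUMO genes gave 5 of 18 named circles, and another 5 were in the persistently low set. The median log2 differences of the members from SHAM were -2.29, -0.81 and -0.16. Of the 5 members, 3 came from Usp3, a deubiquitinase of histones. All have their lower coordinate, which is their downstream end, at 66540061 on the minus strand of chromosome 9. The 2 longer ones, mmu_circRNA_008057 and mmu_circRNA_19525, span 26843 and 26847 bp and so are nearly the same circle, while mmu_circRNA_44528 spans 7895 bp. The first gave 8.14, 10.38 and 10.79 with SHAM blood, against 6.74, 7.38 and 7.12 after 5 min, 8.99, 8.07 and 9.67 after 3 h and 8.92, 9.69 and 10.22 after 24 h. Over the 3 circles the difference from SHAM was -2.69 to -2.29 at 5 min, -0.86 to -0.60 at 3 h and -0.16 to -0.0056 at 24 h, the last with an SE of 0.53 to 0.62. The remaining circles of the list, named after their values were seen, were those of Rnf4, a ubiquitin ligase that reads SUMO chains (-2.06 at 5 min, adjusted p = 0.0524), and Mkln1, part of a large ubiquitin ligase (-2.24, adjusted p = 0.0285).

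Kinases, phosphatases and their regulators gave 6 of 30 named circles, and 14 others were in the persistently low set. The median log2 differences of the members from SHAM were -2.22, -0.75 and -0.71. Besides Tec, Inpp4b, a phosphatase of membrane phosphoinositides, and Phkb, a subunit of the kinase that switches on glycogen breakdown, had the deepest falls. Inpp4b mmu_circRNA_43168 gave 9.18, 9.54 and 9.72 with SHAM blood, against 8.32, 5.90 and 7.18 after 5 min, 8.84, 8.31 and 9.23 after 3 h and 7.97, 8.87 and 9.04 after 24 h. Its highest 5 min array overlapped both later groups. Phkb mmu_circRNA_43246 read 8.21, 8.43 and 8.67, then 6.86, 5.65 and 5.98, then 7.43, 6.99 and 7.69, and finally 6.91, 7.63 and 7.85, and was the member nearest to the 24 h limit. Ptpn4, a tyrosine phosphatase, went from -2.07 ± 0.48 at 5 min to 0.34 ± 0.48 at 24 h (adjusted p = 0.615). With slide as a fixed term the 24 h value was -0.90, and with slide as a random block 0.06.

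Chromatin and transcription genes gave 4 of 19 named circles, and 6 others were in the persistently low set. The median log2 differences of the members from SHAM were -2.22, -0.84 and -0.31. Atad2b, a bromodomain ATPase, had mmu_circRNA_015239 at 9.26, 10.59 and 11.03 with SHAM blood, against 7.96, 7.79 and 7.77 after 5 min, 9.71, 8.70 and 10.12 after 3 h and 9.32, 10.16 and 10.68 after 24 h. The 5 min arrays were tight and below all others. Hmbox1, a homeobox protein, and Cnot6l, a deadenylase of the CCR4-NOT complex, stood at -2.30 and -2.13 at 5 min and at -0.32 and -0.82 at 24 h.

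Among 34 named circles of neuronal host genes only that of Nbea was a member, against 5 in the persistently low set. Nbea encodes neurobeachin, a BEACH domain relative of the Lyst product that sorts membrane proteins in neurons. Its circle mmu_circRNA_001579 gave 8.43, 8.81 and 8.96 with SHAM blood, against 6.16, 5.32 and 5.85 after 5 min, 7.24, 6.38 and 9.31 after 3 h and 9.38, 7.64 and 7.61 after 24 h. The 3 h array of slide 2 lay more than 2 log2 units above the other 3 h arrays and above every SHAM array. The difference was -2.95 ± 0.64 at 5 min (adjusted p = 0.0274), -1.09 ± 0.64 at 3 h and -0.52 ± 0.64 at 24 h. Raw intensities of this circle at 5 min were 51, 45 and 51, below the median tested probe of each array. No erythroid (3 named circles), lymphocyte (1) or myeloid (1) host gene gave a member, so these lists describe too few circles to compare.

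Utrn, outside the lists, encodes utrophin, which ties the actin cytoskeleton to the plasma membrane, and it gave 3 circles. The circles mmu_circRNA_009056 and mmu_circRNA_18967 span 19285 and 19286 bp, share the lower coordinate 12436280 on the minus strand of chromosome 10 and are nearly the same. The circle mmu_circRNA_21668 spans 233066 bp. The first gave 12.51, 11.95 and 11.70 with SHAM blood, against 10.83, 8.54 and 9.66 after 5 min, 11.29, 10.50 and 11.98 after 3 h and 10.65, 11.32 and 11.76 after 24 h. The second read 12.26, 11.80 and 11.51, then 10.57, 8.37 and 9.54, then 11.12, 10.37 and 11.95, and finally 10.54, 11.16 and 11.77. The 2 probes thus ranked the arrays of each group alike. Over the 3 circles the difference was -2.38 to -2.18 at 5 min, -0.80 to -0.30 at 3 h and -0.81 to -0.58 at 24 h.

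**Figure D4:**
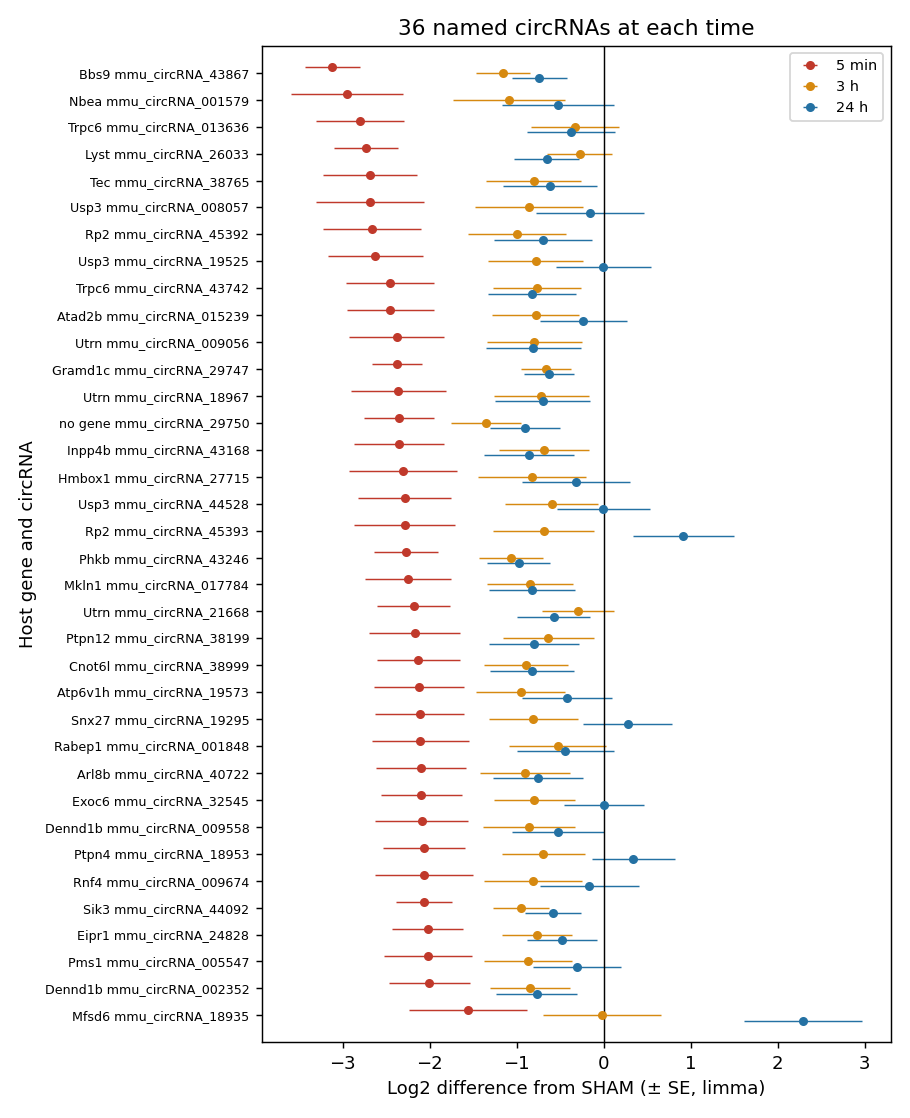
Log2 difference from SHAM (horizontal axis, ± SE from limma, n = 3 arrays per group) of the 36 named circRNAs at 5 min (red), 3 h (orange) and 24 h (blue), ordered by the fall at 5 min. All 3 h values lie between the 5 min value and 0, and 5 of the 24 h values lie above 0, of which 3 lie below 0 with slide as a fixed term.

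Of the 36 named circRNAs, none was called at 3 h and 1 at 24 h against SHAM, beside 4.24% and 31.8% of tested probes. The 24 h call was Mfsd6 mmu_circRNA_18935 (chromosome 1, 52708163 to 52709758, minus strand, sense overlapping), from a gene of the major facilitator transporter superfamily. It gave 7.82, 8.55 and 8.90 with SHAM blood, against 6.99, 6.72 and 6.88 after 5 min, 8.17, 8.02 and 9.01 after 3 h and 12.19, 11.28 and 8.68 after 24 h. The first 2 arrays at 24 h were above all others of the study, and the last lay inside the SHAM range. The log2 difference at 24 h was 2.29 ± 0.68 (adjusted p = 0.0210), but with slide as a fixed term it was 1.37 (adjusted p = 0.573) and with slide as a random block 2.08 (adjusted p = 0.0969). The other 2 members called at 24 h have no name. ASCRP4005926 stood at 1.86 ± 0.63 (adjusted p = 0.0393). It gave 7.86, 8.77 and 9.09 with SHAM blood and 11.79, 10.69 and 8.83 after 24 h, so its last 24 h array lay inside the SHAM range. ASCRP4007911 stood at 1.64 ± 0.48 (adjusted p = 0.0210). It gave 11.67, 11.84 and 11.85 with SHAM blood, against 11.41, 8.97 and 9.91 after 5 min, 12.76, 12.83 and 12.67 after 3 h and 13.76, 13.64 and 12.87 after 24 h. In ASCRP4007911 the 3 h and 24 h arrays were all above SHAM.

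Host genes that also gave circles in the persistently low set were Bbs9, Inpp4b, Lyst, Mkln1, Phkb, Tec, Trpc6 and Utrn. Some pairs lay close to each other on either side of the 24 h limit. At 24 h the Inpp4b circles mmu_circRNA_43168 and mmu_circRNA_43161 stood at -0.85 and -1.06. The Mkln1 circles mmu_circRNA_017784 and mmu_circRNA_009396, which share their end at 31433131, stood at -0.83 and -1.02. The Mkln1 circles also differed earlier, with -2.24 and -2.77 at 5 min and -0.85 and -1.28 at 3 h. Others lay further apart at 24 h. The Lyst circles mmu_circRNA_26033 and mmu_circRNA_26040 fell alike at 5 min (-2.73 and -2.52), but stood at -0.27 and -1.34 at 3 h and at -0.66 and -2.31 at 24 h. The Tec circles mmu_circRNA_38765 and mmu_circRNA_38764 stood at -0.81 and -0.52 at 3 h and at -0.62 and -1.52 at 24 h. The Phkb circles mmu_circRNA_43246 and mmu_circRNA_002959 stood at -0.98 and -2.23 at 24 h. These differences between circles of 1 host were not tested.

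The recovering circRNAs also differed among themselves in how tightly the SHAM arrays agreed. SHAM replicate 1 lay below the mean of replicates 2 and 3 by a median log2 of 1.25, by more than 1 for 107 of the 179, and it was the lowest SHAM array for 158 (88.3%, against 41.9% of tested probes). Over all tested probes replicate 1 lay above that mean by a median of 0.08, and over the persistently low set by a median of 0.26. Measured from SHAM replicate 1 alone, the 179 circRNAs had a median of -1.02 at 5 min and 0.51 at 24 h. Measured from the mean of replicates 2 and 3, they had -2.21 and -0.71.

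**Figure D5:**
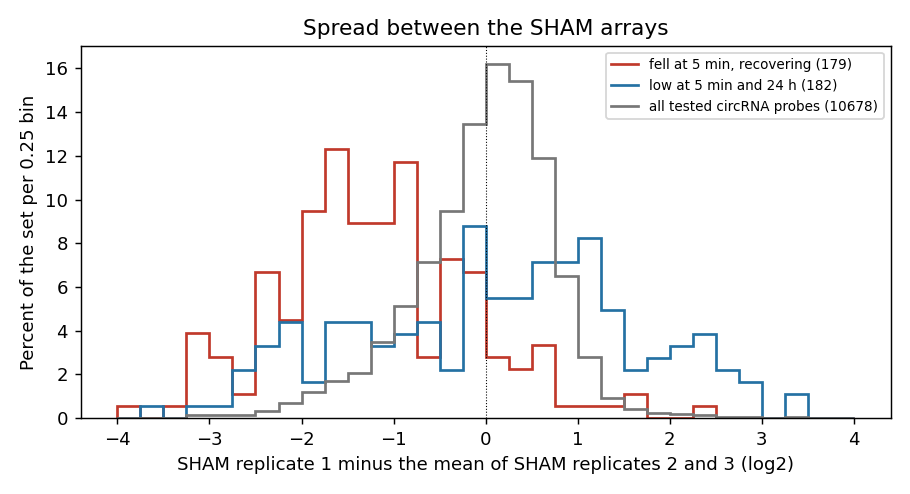
Distribution over probes of SHAM replicate 1 minus the mean of SHAM replicates 2 and 3 (horizontal axis, log2; vertical axis, percent of the set per bin of 0.25) for the recovering set (red), the persistently low set (blue) and all tested probes (grey). The red distribution has its median at -1.25, the blue at 0.26 and the grey at 0.08.

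Among the named circRNAs, 15 had SHAM arrays within 1 log2 unit of each other: those of Bbs9, Lyst, Tec, Utrn, Dennd1b, Inpp4b, Phkb and Nbea, mmu_circRNA_43742 of Trpc6, and, named after their values were seen, Eipr1, Gramd1c and Sik3. Their median log2 differences from SHAM were -2.36 at 5 min, -0.80 at 3 h and -0.66 at 24 h. Gramd1c mmu_circRNA_29747, from a gene of sterol transport at membrane contacts, read 8.29, 7.90 and 7.87 in SHAM and 5.52, 5.61 and 5.80 at 5 min, a difference of -2.38 ± 0.29 (adjusted p = 0.00766). Its raw intensities at 5 min were 46, 50 and 52, below the median tested probe of each array. The other 21 included all circles of Usp3 and Rp2, with SHAM replicate 1 as low as 2.53 under the other 2 arrays, and had medians of -2.17, -0.81 and -0.31.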

How the data were processed

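The authors deposited Agilent Feature Extraction 11.0.1.1 scanner files of 12 one-colour circRNA arrays, with raw median intensity and local background per spot, and a log2 table that they had quantile-normalized. From the deposited intensity values, background was corrected by normexp (offset 0), all spots were quantile-normalized and log2 was taken, in R 4.3.3 with limma 3.58.1. Slides were told apart by the scan time of the files. The 10678 circRNA probes at least 1.1 times as bright as the 95th percentile of 77 negative control spots on all 12 arrays were tested with limma's lmFit and eBayes (trend) over all 12 arrays without covariates, with Benjamini-Hochberg adjustment. The fit was tested on simulated data. An exact permutation test of 3 arrays against 3 cannot go below a p of 0.1 (two-sided), so single values were tested in the fit only.

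Names come from the study's supplementary list, whose pages were read as images. Each of its 903 entries was matched to a probe by its mean and log2 change, and its fold and p-value columns were otherwise not used. For 857 entries the host symbol lay at the listed place on GRCm38.p6 (mm10), including 35 of the 36 named members. One misread symbol, Hmbox1, was restored in this way. All 179 members passed the filter of the test, and no member spot was saturated or marked an outlier. Without the background filter the rule would hold 243 probes, of which 64 were not well above background on every 5 min array.

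The members, host gene lists and tests were chosen with earlier results of these data known. Named are the 10 deepest falls, the 10 largest rises from 5 min to 24 h, members with platelet host genes, host genes with several members, up to 3 members of each other list, and probes at the limits. Alternatives covered background, scaling, the deposited table, the filter, slide, replicate block, array weights, the groups fitted and leaving out each array. The number of arrays limits the precision.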

Additional observations from a re-analysis of the deposited data

How the results depend on the processing

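The rule held 179 circRNAs as reported, 105 without background subtraction and 97 with a normexp offset of 50, of which 98 and 92 were among the 179. With cyclic loess it held 199, with the 75th percentile of the processed signal 224, in the log2 table as deposited it held 129, and with the negative control limit it held 194. Leaving out 1 array gave 124 (SHAM replicate 3) to 244 (SHAM replicate 1). The calls at 5 min against SHAM numbered 97, and 148 with only the arrays of slide 1, an alternative chosen after seeing the data. They ranged from 1 to 161 when 1 array was left out, being 14 without SHAM replicate 3, 50 and 22 without 5 min replicates 1 and 2, 34 without 3 h replicate 1 and 37 without 24 h replicate 2. At 3 h against SHAM the count of 0 became 1 without background subtraction, with offset 50, with the well-above-background filter, with slide as a random block and in the fit of the 2 groups alone. It was 2 without the trend, 4 with slide as a fixed term, 8 on slide 1, and 0 to 18 without 1 array (18 without SHAM replicate 1). At 24 h against SHAM the 3 calls became 5 with the 75th percentile, 1 in the fit of the 2 groups alone, 0 with slide as a fixed term or as a random block (with 764 and 1995 of all tested probes still called), and 0 to 21 without 1 array (21 without SHAM replicate 1, 9 without 24 h replicate 3, and 0 without SHAM replicate 2 or 24 h replicate 2). For 3 h against 5 min the 13 calls became 7 with slide as a fixed term, 7 in the fit of the 2 groups alone, and 0 to 34 without 1 array (34 without 24 h replicate 1; 0 without 5 min replicate 2, 5 min replicate 3 or 3 h replicate 1). For 24 h against 5 min the 101 calls became 1 with slide as a fixed term and 33 with slide as a random block (with 191 and 1627 of all tested probes called). They were 51 (without 5 min replicate 2) to 143 (without 24 h replicate 1) when 1 array was left out. Array weights gave 179, 169, 169, 176 and 177 calls in these 5 comparisons, but that fit stopped before it converged and called 10399 of the 10678 tested probes at 5 min. Of the 108 differences of the named circRNAs from SHAM, 15 turned their sign under some alternative, and none of these was called in the fit reported. With slide as a fixed term the 24 h values of Ptpn4, Snx27 and Exoc6 turned to -0.90, -0.43 and -0.79, and with slide as a random block Exoc6 was at -0.18. Array weights put Exoc6 at -0.12 and Rp2 mmu_circRNA_45393 at -0.11 at 24 h. Exoc6 at 24 h was also at -0.0073 without background subtraction, -0.013 with offset 50 and -0.0027 in the deposited table. Cyclic loess gave, at 24 h, 0.0714, 0.18 and 0.16 for the Usp3 circles mmu_circRNA_008057, mmu_circRNA_19525 and mmu_circRNA_44528, 0.0442 for Rnf4 and 0.0102 for Atad2b, and at 3 h 0.0258 for Mfsd6. The 75th percentile gave 0.13 and 0.0499 for the last 2 Usp3 circles and 0.0077 for Mfsd6 at 3 h. Without 1 array, the values at 24 h ran from -0.97 to 0.14 for Pms1, -0.97 to 0.36, -0.70 to 0.44 and -0.63 to 0.42 for the Usp3 circles, -0.69 to 0.47 for Rnf4, -0.75 to 0.13 for Atad2b, -0.26 to 0.76 for Snx27, -0.92 to 0.11 for Atp6v1h, -1.15 to 0.23 for Hmbox1 and -0.52 to 0.38 for Exoc6. At 3 h they ran from -0.74 to 0.0719 for Trpc6 mmu_circRNA_013636, -0.33 to 0.22 for Mfsd6 and -0.51 to 0.0509 for Lyst. The median difference of the members stayed below 0 throughout: at 3 h from -1.09 to -0.37 and at 24 h from -0.9998 to -0.07, without 1 array from -0.71 to -0.07. The cause of these changes was not tested. Except where stated, the calls over all tested probes in the same fits are not given here, so the counts of calls describe the fits and not the members.

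The labels number the replicates 1 to 3 in every group. Between arrays of the same number, the correlation of deviations from the group means ran from -0.52 to 0.46. Between others it ran from -0.54 to 0.55. The 2 ranges were alike, but this cannot tell whether arrays of the same number share more than a number. With a replicate block the calls were 115 at 5 min, 0 at 3 h and 2 at 24 h against SHAM, and 15 at 3 h and 125 at 24 h against 5 min. For this fit too, the calls over all tested probes are not given here. The medians at 3 h and 24 h remained -0.72 and -0.40 in the fit with the replicate block.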
